A study of Mus musculus with 8 samples.

Results

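Wfdc17 and Lilr4b are the 2 genes that the main edgeR fit called higher in LPS-primed than in PBS-primed bone marrow (BM) neutrophils. That fit used summed UMI counts and an adjusted p threshold of 0.05, and tested 8478 of the 10970 deposited genes. The choice depends on the fit. DESeq2 called 116 genes higher there, limma-voom 4 and edgeR with library size alone 6. With RLE size factors, or with only the 4 BM samples, edgeR again called 2. Wfdc17 and Lilr4b were followed here through every plate and cell of the study, in bone marrow and in peripheral blood (PB). Both passed the filter on low counts, and because the marrow contrast chose them, their difference there is described and not tested. The blood contrast did not enter the choice, but the blood samples were part of the same model and of its estimate of the spread. The highest-ranked rises just outside the threshold in marrow were Spata13 (log2 fold change 3.04), Ctss (5.10) and Lrg1 (1.25). The 2 genes past it had log2 fold changes of 1.78 (Lilr4b) and 4.03 (Wfdc17).

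The cells came from 7- to 12-week-old male mice of the C57BL/6J background, with no transgene or deletion named for these samples. The mice received an intraperitoneal injection of either PBS or LPS at 0.5 mg/kg, and neutrophils were enriched from blood and marrow with a negative-selection kit and picked one by one for SCRB-seq, a plate method that counts mRNA 3′ ends by unique molecular identifier (UMI). Collection followed 4 h after the injection by the methods, whereas the titles of the PBS samples read 0 h. The table holds 1421 cells on 17 plates. The 711 cells of batch 7 form 8 labelled samples, 2 for each of the 4 groups, and each sample is 1 plate. The 710 cells of batch 6, on 9 plates, carry a group but no sample, and are given as plate values without an SD or a test. The sources do not say that the samples of a group came from separate mice, so every p-value measures only the spread between these plates. Totals per plate ran from 3240559 to 12020616 UMIs, and the median cell of a plate had 32295 to 117374. The plates share all 95 well barcodes in use, so a cell is told apart from its namesakes by plate alone.

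Wfdc17 (also called AMWAP) encodes a small secreted protein with a whey acidic protein (WAP) four-disulfide core, the fold of a class of serine protease inhibitors, and is known from activated macrophages and microglia, where it dampens inflammatory output. Lilr4b (gp49A) encodes an immunoglobulin-like receptor of myeloid and mast cells that lacks inhibitory motifs in its tail. Its neighbour Lilrb4a (gp49B1) encodes a close relative that carries such motifs and restrains cell activation. LPS, the outer membrane lipid of Gram-negative bacteria, is sensed through TLR4 and is the classical stimulus for this kind of myeloid gene.

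In mm9, Wfdc17 lies on the plus strand of chr11:83517493-83519770, where the GENCODE annotation lists it as Gm11428 with 3 exons. Lilr4b, listed as Gp49a, occupies chr10:51200438-51206122 on the plus strand with 9 exons. Lilrb4a, listed as Lilrb4, is annotated at chr10:51200446-51216419 on the same strand, and the first exon of its longest transcript lies inside Lilr4b. The bases upstream of both members, credited to the RefSeq promoter windows and placed in mm9 by exact match, are shown because the genes were chosen together. Wfdc17 is given at chr11:83517308-83517492, before the annotated transcript, and Lilr4b at chr10:51200168-51200417, up to the base before the RefSeq start. Capitals mark motif matches.
Wfdc17: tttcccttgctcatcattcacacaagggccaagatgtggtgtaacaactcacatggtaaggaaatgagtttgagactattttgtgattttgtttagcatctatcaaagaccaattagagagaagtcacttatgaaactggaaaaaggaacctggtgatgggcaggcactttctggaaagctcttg
Lilr4b: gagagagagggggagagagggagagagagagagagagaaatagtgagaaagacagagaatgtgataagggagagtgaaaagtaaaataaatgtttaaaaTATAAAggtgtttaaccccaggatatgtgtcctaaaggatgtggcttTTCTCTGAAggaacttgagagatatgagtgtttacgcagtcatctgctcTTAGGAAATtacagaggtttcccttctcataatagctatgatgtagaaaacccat
The capitals in Lilr4b are, from 5′ to 3′, TATAAA at -151 to -146, TTCTCTGAA at -104 to -96, a match to the STAT motif TTCNNNGAA on both strands, and TTAGGAAAT at -55 to -47, a match to the C/EBP motif TTNNGNAAT. No base of one match belongs to another. Over 32841 promoter windows of 250 bases, 12.4% held TATAAA, 7.02% the STAT motif and 10.2% the C/EBP motif on either strand. All 250 bases before each RefSeq start were searched, although for Wfdc17 only the 185 bases before the annotated transcript are shown. The Wfdc17 window held none of these motifs, and neither window held the NF-kB motif (in 3.901% of windows), the ETS motif GGAAGT (19.7%) or the ISRE core motif (2.98%). A match describes letters and was not tied to binding of a factor in these cells.

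The closeness of Lilr4b and Lilrb4a bears on every Lilr4b count. Aligned over their longest annotated transcripts the pair was identical at 96.7% of bases, and at 96.0% of the coding bases, with 36 differences and a longest identical coding run of 126 bases. Of windows of 100 bases in the last 400 bases of the Lilr4b transcript, the part a 3′-end method reads, 36.2% also occur in Lilrb4a. For windows of 150 bases, the length of the study's reads before trimming, it was 23.5%. Those reads cannot be assigned to 1 gene, and the counting kept uniquely mapped reads. The 90 coding bases in which the pair differed most are shown, with each of the 11 differing bases in capitals.
Lilr4b: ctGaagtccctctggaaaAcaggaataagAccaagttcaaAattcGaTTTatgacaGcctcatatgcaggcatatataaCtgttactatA
Lilrb4a: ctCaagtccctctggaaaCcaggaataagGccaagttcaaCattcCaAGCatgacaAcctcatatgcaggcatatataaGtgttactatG
Both stretches are coding bases 212 to 301, counted from the first base of the start codon. Lilr4b values below are therefore uncertain in their split from Lilrb4a, and the pair is also given together.

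Neutrophils were the cells measured. The 8 neutrophil markers (S100a8, S100a9, Csf3r, Ly6g, Cxcr2, Retnlg, Mmp9 and Mmp8) summed to between 120628 and 367629 counts per 1000000 UMIs of a plate (CPM). Of 12 monocyte and macrophage markers 9 were in the table, and they summed to 469 to 1508 CPM. Most of that in marrow was Ly6c2, at 622 to 1065 CPM. Csf1r, Cd68 and Adgre1 of the same list were above 0 on all 9 marrow plates. Csf1r and Adgre1 were highest in PBS-primed BM sample 2, at 134 and 21.4 CPM. Cd68 was highest on the LPS-primed BM plate of batch 6, at 73.4 CPM. The monocyte gene Ccr2, in contrast, was at 0 on 7 of the 9 marrow plates. Its largest marrow level, 23.1 CPM, was in LPS-primed BM sample 1, where Ms4a6c also reached 48.6 CPM and F13a1 47.3 CPM. Both of those genes were at 0 in LPS-primed BM sample 2.

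Wfdc17 was nearly absent from resting marrow of batch 7 and stood far higher after LPS. PBS-primed BM samples had 52.1 and 22.8 CPM, and LPS-primed BM samples 720 and 659 CPM. The means were 37.4 ± 20.7 and 690 ± 43.3 CPM (SD, n = 2 each). The 2 groups did not overlap, as the choice of the gene requires. In the edgeR fit the log2 fold change was 4.03 with a standard error of 0.34. On 4 PBS-primed BM plates of batch 6, which the choice did not use, the levels were 168, 269, 784 and 406 CPM, and on the only LPS-primed plate 1457 CPM. The LPS plate was again the highest, but the PBS plates of batch 6 all stood above those of batch 7, and 1 of them exceeded both LPS-primed samples of batch 7. The ratio of pooled values was 4.10 in batch 6 against 18.4 between the means of batch 7. The direction was the same in both batches and the size was not.

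Lilr4b had a resting level in marrow and rose from it. PBS-primed BM samples had 633 and 589 CPM and LPS-primed BM samples 2629 and 2143 CPM, with means of 611 ± 30.9 and 2386 ± 344 CPM (SD, n = 2 each). The fitted log2 difference was 1.78, standard error 0.19. Batch 6 was close to this, with 760, 751, 651 and 528 CPM on its PBS plates and 2174 CPM on the LPS plate. All 3 LPS-primed marrow plates stood above all 6 PBS-primed ones. Without LPS-primed BM sample 1 the log2 fold change was 1.62, and the gene was no longer among those called. With the near-identical neighbour included, the pair summed to 1718 and 1475 CPM in PBS-primed BM samples and to 5049 and 4333 CPM in LPS-primed BM samples.

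**Figure D1:**
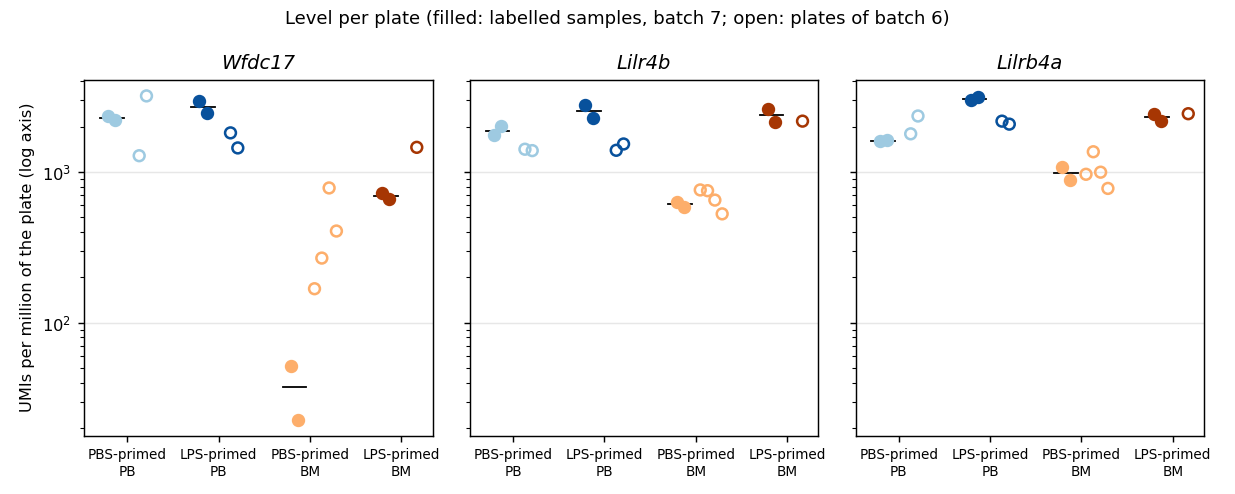
Level of Wfdc17, Lilr4b and the neighbour Lilrb4a per plate, in CPM on a log axis, for the 4 groups. Filled points are the labelled samples of batch 7 with their mean as a bar (n = 2), open points the plates of batch 6. Between PBS- and LPS-primed plates of 1 tissue and batch, the widest distance on this axis is that of Wfdc17 in BM of batch 7. It ran from 22.8 to 720 CPM there, and from 168 to 1457 CPM in batch 6.

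In blood both genes were already high without LPS. Wfdc17 had 2347 and 2218 CPM in PBS-primed PB samples and 2961 and 2463 CPM in LPS-primed PB samples. The order of the group means in batch 7 was LPS-primed PB (2712 ± 352), PBS-primed PB (2283 ± 91.6), LPS-primed BM (690 ± 43.3) and PBS-primed BM (37.4 ± 20.7 CPM; SD, n = 2 each). The first 2 of these lie close together, separated by 116 CPM between their nearest samples. In batch 6 they overlapped, with 1282 and 3194 CPM on PBS-primed PB plates and 1817 and 1444 CPM on LPS-primed PB plates. Lilr4b had 1748 and 2008 CPM in PBS-primed PB samples and 2771 and 2297 CPM in LPS-primed PB samples. Its order was LPS-primed PB (2534 ± 335), LPS-primed BM (2386 ± 344), PBS-primed PB (1878 ± 183) and PBS-primed BM (611 ± 30.9 CPM). The first 2 overlap sample by sample. In batch 6 Lilr4b was at 1415 and 1386 CPM on PBS-primed and 1393 and 1534 CPM on LPS-primed PB plates, which also overlap.

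Whether LPS changed either gene in blood is a contrast the choice did not use. It shares its estimate of the spread with the marrow contrast, so it is not fully independent of the choice. It was tested over all 8478 genes that passed the filter with edgeR's quasi-likelihood test and Benjamini-Hochberg adjustment. Lilr4b rose by 1.34 on the log2 scale (edgeR adjusted p = 0.00196, SE 0.19), and both LPS-primed samples were above both PBS-primed ones. Wfdc17 missed the threshold at 1.16 (edgeR adjusted p = 0.0642, SE 0.30). So 1 of the 2 genes was called in blood, in the direction of a rise. Of all genes tested there 3.94% were called, 3.47% higher (294 genes) and 0.472% lower (40 genes). In marrow 0.0708% were called, 0.0236% higher, which are Wfdc17 and Lilr4b themselves, and 0.0472% lower.

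The blood values depend on the scaling of the samples. TMM factors, which set a sample's effective depth from the bulk of its genes, were 1.35 and 1.38 for PBS-primed PB samples and 0.748 and 0.694 for LPS-primed PB samples. Over all genes the median change in blood on the log2 scale was -0.11 with these factors and -1.02 with library size alone. On library size alone the changes were 0.43 for Lilr4b (adjusted p = 0.227) and 0.24 for Wfdc17 (adjusted p = 0.682, both edgeR), so the call for Lilr4b was lost and both remained above the median gene. In CPM the ratio of LPS-primed to PBS-primed means was 1.35 for Lilr4b and 1.19 for Wfdc17 in batch 7. Between the pooled cells of batch 6 it was 1.04 and 0.716. Transcripts of liver genes also moved with the blood groups: Alb, Apoa2, Ttr and Mup3 summed to 1300 and 2039 CPM in PBS-primed and 727 and 755 CPM in LPS-primed PB samples of batch 7, and to at most 1.08 CPM on PB plates of batch 6. Markers of platelets summed to 423 and 260 against 108 and 73.4 CPM, those of T and NK cells to 236 and 176 against 1.56 and 1.70 CPM, and the neutrophil list to 145111 and 153744 against 258203 and 283961 CPM. The granule genes Ngp, Camp, Ltf, Chil3 and Cebpe moved most, from 113 and 206 to 14439 and 17179 CPM, and in batch 6 from 1023 and 732 to 42564 and 32950 CPM. The part of these other transcripts in the blood values was not tested.

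The share of marrow cells that carried Wfdc17 rose with its level, yet most of its RNA sat in few cells. To compare cells of unequal depth, each was thinned at random to 5000 UMIs, a depth every cell reached. At that depth Wfdc17 was seen in 8 of 83 cells (9.64%) and 15 of 92 cells (16.3%) of PBS-primed BM samples. After LPS it was seen in 49 of 91 cells (53.8%) and 48 of 92 cells (52.2%). The difference of the means was 40.0 percentage points (SD 4.86, n = 2 each), and the groups did not overlap. The summed UMIs of these same samples chose the gene, so this separation leans on the choice. An exact permutation test of 2 samples against 2 cannot give a p below 0.333, so none is given. In batch 6 the shares were 36.9%, 33.0%, 57.8% and 54.5% on PBS plates and 63.6% on the LPS plate. There 2 of the 4 PBS plates stood above both LPS-primed samples of batch 7.

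At full depth 62.7% and 62.0% of cells in PBS-primed BM samples and 93.4% and 92.4% in LPS-primed BM samples held at least 1 Wfdc17 UMI. The median cell had 1 UMI in both PBS-primed samples, and 10 and 8 UMIs in the LPS-primed ones. A single UMI is weak evidence of expression on pooled plates, and the table has no cell type that should lack Wfdc17 to set a background against. The level that 10% of a plate's cells did not exceed was 0 CPM in both PBS-primed BM samples, 29.6 and 22.2 CPM in LPS-primed BM samples, and 98.6 to 163 CPM on the 8 blood plates. In batch 6 it was 0 to 65.1 CPM on PBS-primed BM plates, in an order that was not that of the plate levels, and 74.8 CPM on the LPS-primed one. The part of RNA passed between wells in these low values was not tested. Counting only cells with at least 10 UMIs, a limit set after the data were seen, gave 2 of 83 and 2 of 92 cells in PBS-primed BM samples and 47 of 91 and 40 of 92 in LPS-primed ones.

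After LPS, Lilr4b was found in nearly all marrow cells. At 5000 UMIs it was seen in 45 of 83 (54.2%) and 56 of 92 (60.9%) cells of PBS-primed BM samples, and in 88 of 91 (96.7%) and 91 of 92 (98.9%) cells of LPS-primed BM samples. The difference of the means was 40.3 percentage points (SD 4.96, n = 2 each), and it too leans on the choice of the gene from these samples. The PBS plates of batch 6 had 63.1% to 76.9% and the LPS plate 94.3%. At full depth the median cell held 4 and 11 Lilr4b UMIs in PBS-primed BM samples against 169 and 149 in LPS-primed ones. In blood the share at 5000 UMIs was 77.8% and 89.5% in PBS-primed and 100% and 91.9% in LPS-primed PB samples. For Wfdc17 the blood shares were 88.9% and 86.0% against 91.2% and 87.2%, a difference of 1.74 points (SD 3.47, n = 2 each) that is within the spread between samples.

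The distribution over cells separated the 2 genes. In LPS-primed BM samples the 10% of cells richest in Wfdc17 held 57.6% and 72.9% of its UMIs, and 67.7% on the batch 6 plate. The same count of cells richest in Lilr4b held 28.5% and 31.8% of Lilr4b UMIs, and 34.6% in batch 6. For Wfdc17 in LPS-primed BM sample 1 the 25th percentile, the median and the 75th percentile of the cells lay at 58.8, 87.3 and 842 CPM, and the highest cell had 9546 CPM. In sample 2 they were 43.3, 99.05 and 431 CPM, with a highest cell of 10253 CPM. The median cell was thus far below the plate level of 720 or 659 CPM. For Lilr4b these percentiles were 1657, 2397 and 3722 CPM in sample 1 and 1253, 2016 and 2885 CPM in sample 2, so the median cell was near the plate level. In PBS-primed BM samples the 2 highest cells alone held 76.0% and 42.9% of Wfdc17 UMIs.

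**Figure D2:**
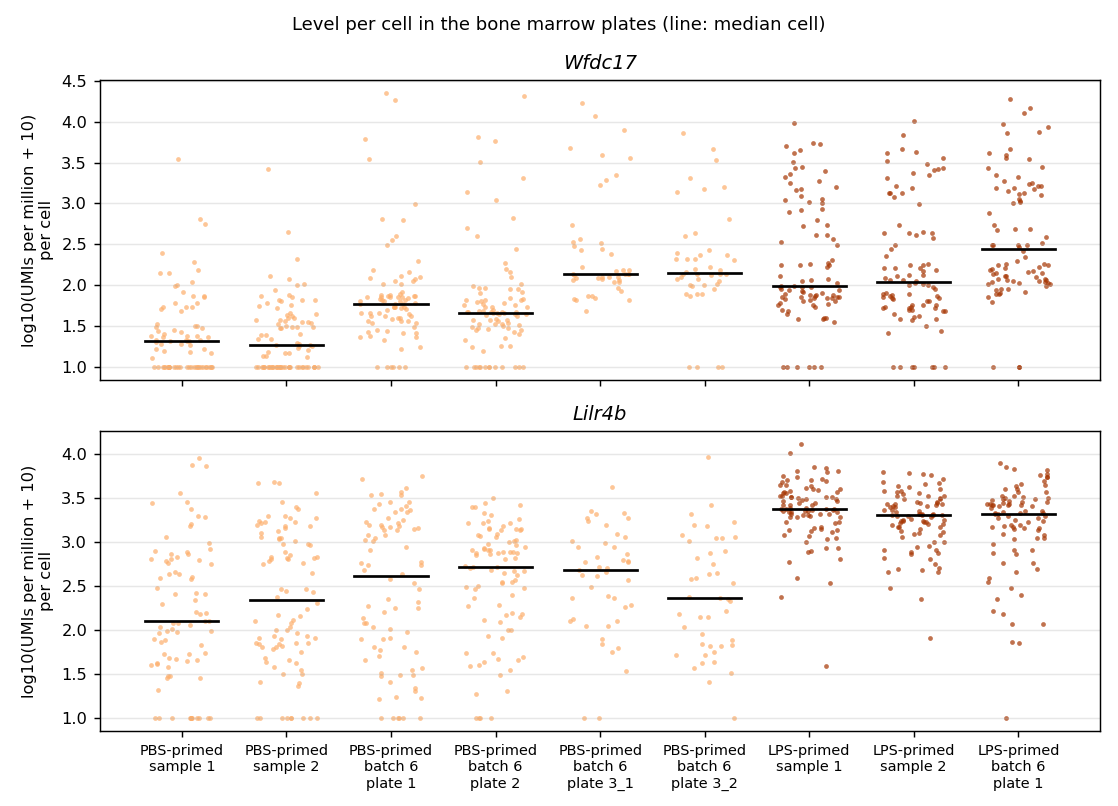
Level per cell on the 9 marrow plates, as log10 of CPM plus 10, with 1 point per cell and the median cell as a line. Wfdc17 formed a low band and a tail of high cells that was denser after LPS, whereas the Lilr4b cells of the LPS-primed plates lay together near their medians of 2016 to 2397 CPM.

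A responding cell was also defined without reference to single UMIs, as one above the 95th percentile of the PBS-primed BM cells of its batch. For Wfdc17 that limit was 135 CPM in batch 7, and 40 of 91 (44.0%, exact 95% binomial interval 33.6 to 54.8) and 39 of 92 (42.4%, 32.1 to 53.1) LPS-primed BM cells exceeded it, against 7.23% and 3.26% in the PBS-primed samples that set it. The limit was 2846 CPM for Lilr4b, exceeded by 38 of 91 (41.8%, 31.5 to 52.6) and 24 of 92 (26.1%, 17.5 to 36.3) LPS-primed cells, against 4.82% and 5.43%. Intervals cover counting error only. The batch 7 samples chose both genes, so these shares lean on the choice as well. With the 99th percentile the shares were 19.8% and 21.7% for Wfdc17, and 2.20% and 0% for Lilr4b, where a count of 0 of 92 cells allows a share of up to 3.93% by the exact interval. In batch 6 the Wfdc17 limit was 3618 CPM, set by a few very high PBS-primed cells, and 10 of 88 LPS-primed cells (11.4%) passed it. The PBS plates of that batch had 3.30% to 13.3% of cells above it, a range that includes the LPS plate. For Lilr4b the limit in batch 6 was 2716 CPM and 30 of 88 cells (34.1%) passed it, above every PBS plate (2.20% to 11.9%).

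Both genes were often found in the same LPS-primed marrow cell. Lilr4b was seen in 88 of 91 and 91 of 92 cells of LPS-primed BM samples at 5000 UMIs. The share with both therefore had to lie close to the product of the single shares, and cannot tell whether the genes go together. At 5000 UMIs both were seen in 47 of 91 (51.6%) and 48 of 92 (52.2%) cells of LPS-primed BM samples, where the product of the single shares is 52.1% and 51.6%. On the batch 6 plate 59.1% of cells held both and the product was 60.0%. In PBS-primed BM samples 6.02% and 11.96% held both, against 5.23% and 9.92% from the product. With at least 10 UMIs of each gene, both were found in 49.5% and 42.4% of cells of LPS-primed BM samples, against 50.5% and 39.7% from the product. On the LPS-primed BM plate of batch 6 it was 59.1% against 55.0%. PBS-primed BM samples had 2.41% and 1.09% against 1.02% and 1.16%, and LPS-primed PB samples 82.4% and 74.4% against 82.1% and 71.8%. Spearman's rho of the levels per cell was 0.31, 0.20 and 0.16 on the 3 LPS-primed BM plates (91, 92 and 88 cells), 0.00 to 0.34 on the 6 PBS-primed BM plates and -0.09 to 0.18 on the 8 PB plates. The cells of a plate share 1 library and differ in depth, and these values are descriptions.

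The marrow cells richest in Wfdc17 were poor in late granule transcripts. Ngp, Camp, Ltf and Chil3 encode granule or secretory proteins of maturing neutrophils and Cebpe the factor that drives their granule program, and their summed level falls as cells mature. The cells of each marrow plate were split into 3 equal parts by that sum, a split chosen after the data were seen. From the lowest to the highest part, Wfdc17 went from 1254 over 1126 to 125 CPM in LPS-primed BM sample 1. In sample 2 it went from 1714 over 539 to 244 CPM. On the batch 6 plate it was 3231 CPM in the lowest part and 720 and 775 CPM in the others. Spearman's rho of Wfdc17 with the granule sum was -0.55, -0.51 and -0.52 on these plates, and -0.10 to -0.54 on the PBS-primed BM plates. In the same cells rho of Wfdc17 with the authors' ERCC spike-in ratio was 0.19, 0.37 and 0.36, and on the PBS-primed BM plates -0.04 to 0.73, and its part in this relation was not tested.

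Lilr4b varied less across the granule parts. It had 3148, 3367 and 1817 CPM from lowest to highest part in LPS-primed BM sample 1, and 2725, 2559 and 1621 CPM in sample 2. Even the granule-rich part after LPS stood above every part of the PBS-primed BM samples, where the levels ran from 289 to 1163 CPM. For Wfdc17 the granule-rich part after LPS, at 125 and 244 CPM, was also above the 8.19 and 18.7 CPM of that part in PBS-primed BM samples, while batch 6 had 31.4 to 103 CPM on its PBS plates against 775 CPM on the LPS plate. All 9 marrow plates had less of each gene in the highest than in the lowest part.

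**Figure D3:**
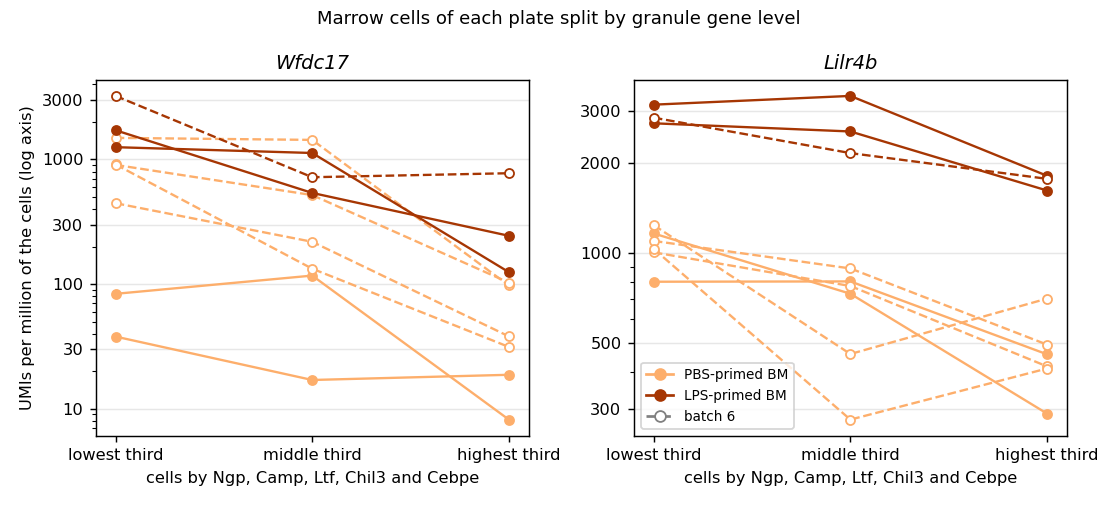
Wfdc17 and Lilr4b, in CPM on log axes, in the marrow cells of each plate split into 3 equal parts by summed Ngp, Camp, Ltf, Chil3 and Cebpe. Solid lines are batch 7 and dashed lines batch 6. Wfdc17 fell from 1254 and 1714 CPM to 125 and 244 CPM in the LPS-primed samples, and Lilr4b from 3148 and 2725 CPM to 1817 and 1621 CPM.

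The authors deposited a cluster number for each cell. Their cluster 0 held most marrow cells, 162 of 175 PBS-primed and 170 of 183 LPS-primed BM cells of batch 7, and cluster 1 held most PBS-primed PB cells. Within cluster 0 Wfdc17 was at 28.9 and 23.3 CPM in PBS-primed and 559 and 660 CPM in LPS-primed BM samples. Those are most of the cells whose sums chose the genes, so a difference within cluster 0 follows from the choice. Lilr4b within cluster 0 was at 627 and 587 CPM against 2606 and 2155 CPM. In batch 6, the 28 PBS-primed BM cells of cluster 1 had 2670 CPM of Wfdc17 as a pool, against 212 CPM in the 236 cells of cluster 0. In batch 7 the PBS-primed BM cells of cluster 1 had 217 CPM in sample 1 (7 cells) and 13.5 CPM in sample 2 (6 cells). The LPS-primed ones had 3101 CPM in sample 1 (7 cells) and 779 CPM in sample 2 (5 cells), so few cells and 1 sample carry these levels. The clusters were made from these cells and their genes, so they serve as labels and no test was run between them.

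Wfdc17 was unevenly spread over blood cells too. The median cell had 968 and 506 CPM in PBS-primed PB samples and 1329 and 1151 CPM in LPS-primed PB samples, and the 10% of cells richest in it held 47.4% and 59.5%, and 53.6% and 55.6%, of its UMIs. For Lilr4b the median cell had 1549 and 1381 CPM against 2585 and 2413 CPM, so its LPS-primed samples stood higher by this measure too. LPS-primed PB cells of batch 7 fell mainly into cluster 1 (48 and 35 cells) and cluster 2 (42 and 42 cells). Wfdc17 was at 3230 and 3968 CPM in their cluster 1 and 2783 and 1894 CPM in their cluster 2. Lilr4b was at 3491 and 3220 CPM against 2242 and 1946 CPM. Both genes were thus lower in cluster 2 in each sample. In batch 6, 185 of 186 LPS-primed PB cells were in cluster 2, where Wfdc17 was at 1639 CPM and Lilr4b at 1447 CPM as a pool, so the batches differ in the make-up of this group. PBS-primed PB cells of cluster 1 had 2350 and 2255 CPM of Wfdc17 in batch 7.

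Monocyte transcripts were looked for among the cells richest in Wfdc17, and lists of other non-neutrophil cells were not summed there. As most of the monocyte list in marrow was Ly6c2, a lower sum cannot show that monocytes were absent. In LPS-primed BM sample 1 the 9 cells richest in Wfdc17 had 762 CPM of the monocyte list against 962 CPM in the other 82 cells, and 344196 against 295325 CPM of the neutrophil list. In sample 2 the monocyte list was at 809 CPM in the richest 9 cells and 909 CPM in the rest. On the batch 6 plate it was at 1966 against 1004 CPM. Their median depth was 43368, 67840 and 31570 UMIs on the 3 plates, against 80619, 69883 and 69845 in the rest. The richest cells carried 10099, 6435 and 11620 CPM of the granule genes on the 3 plates, against 46447, 59323 and 52577 CPM in the rest. The monocyte list was thus lower in the richest cells of both samples and higher in those of the batch 6 plate, and its part there was not tested.

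Lilr4b took a larger share of the Lilr4b and Lilrb4a pair in LPS-primed than in PBS-primed marrow. In the batch 7 marrow samples Lilr4b was chosen for its rise and Lilrb4a missed the threshold (edgeR adjusted p = 0.0957). By the other tools Lilrb4a was called higher there (adjusted p = 0.000774 with DESeq2 and 0.0129 with limma-voom). With RLE size factors, and with only the 4 BM samples, edgeR did not call it. The split of Lilr4b and Lilrb4a in those samples therefore leans on the choice and is a description. Lilr4b took 36.9% and 39.9% of the pair's UMIs in PBS-primed BM samples and 52.1% and 49.5% in LPS-primed BM samples. In batch 6, which the choice did not use, it took 35.6% to 44.1% on PBS plates and 47.2% on the only LPS plate. In blood the share was 52.2% and 55.4% in PBS-primed and 48.0% and 42.4% in LPS-primed PB samples, and batch 6 had 44.1% and 37.1% against 39.1% and 42.5%, which overlap. Lilrb4a alone had 1085 and 886 CPM in PBS-primed and 2420 and 2190 CPM in LPS-primed BM samples, a log2 difference of 1.04 (SE 0.18). In blood it rose from 1603 and 1617 CPM to 3004 and 3121 CPM (1.84 on the log2 scale, SE 0.18, edgeR adjusted p = 0.000176), and on library size alone it was also called, with 0.92 (edgeR adjusted p = 0.0141). The blood plates of batch 6 overlapped, with 1791 and 2351 CPM after PBS and 2173 and 2076 CPM after LPS, a pooled ratio of 1.02 against 1.90 in batch 7. Within plates, rho of the 2 genes over cells was 0.04 to 0.44.

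**Figure D4:**
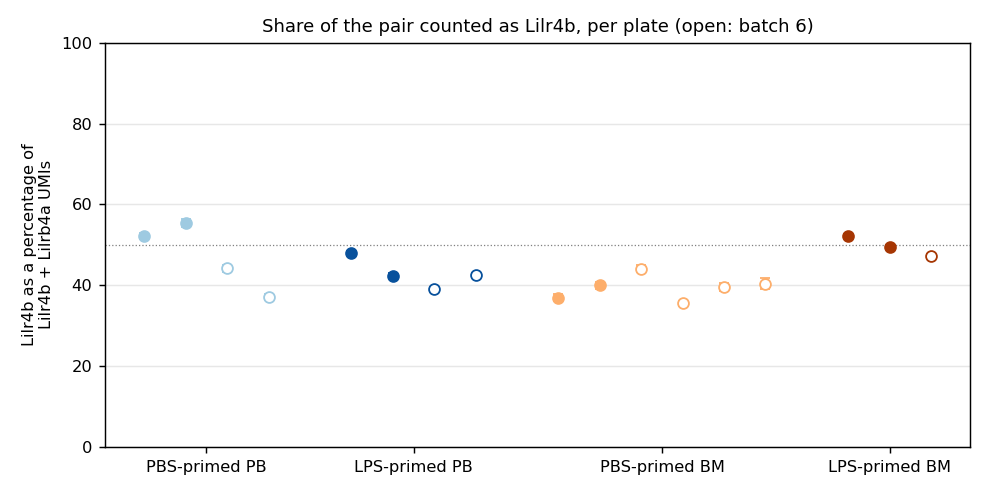
Lilr4b as a percentage of the UMIs of Lilr4b and Lilrb4a on each plate, with exact 95% binomial intervals, most of them smaller than the points. Filled points are batch 7, open points batch 6 and the dotted line an even split. The 3 LPS-primed BM plates lie between 47.2% and 52.1%, above the 6 PBS-primed BM plates at 35.6% to 44.1%. The filled BM points are samples on which Lilr4b was chosen.

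The genes whose plate levels ran most like those of Wfdc17 and Lilr4b were ranked over 17 plates by Pearson's r of log2(CPM + 1) among 3158 genes. The plates fall into the 4 groups and share batches, so these values are descriptions with no test. For Wfdc17 they were Il13ra1 (r = 0.91), a receptor chain for IL-13, Spata13 (0.89), a guanine exchange factor, Socs3 (0.89), a feedback inhibitor of cytokine signalling, Ctss (0.88), a lysosomal cysteine protease, and Klf2 (0.84), a transcription factor. For Lilr4b they were Fbxl5 (0.93), an iron-sensing ubiquitin ligase subunit, Lilrb4a (0.92), Csf2rb (0.89), the shared beta chain of the GM-CSF, IL-3 and IL-5 receptors, Ccr1 (0.89), a chemokine receptor, and Sbno2 (0.88), a transcriptional regulator. Wfdc17 and Lilr4b stood at r = 0.74 to each other, at rank 47 for Wfdc17 and 49 for Lilr4b, below the 99th percentile of 0.76 and 0.77.

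Of 16 other WAP-type and protease inhibitor genes tested, 4 rose in LPS-primed PB neutrophils, 0 fell and 12 did not pass. Their median log2 difference was 1.93 against -0.11 over all genes, of which 3.47% were called higher and 0.472% lower. Wfdc21, another secreted WAP protein, rose by 3.26 (edgeR adjusted p = 5.17e-06), Serpinb1a, an inhibitor of neutrophil elastase, by 3.45 (edgeR adjusted p = 0.00201), and the stefin-type gene Gm5483 by 2.48. In PBS-primed BM samples these genes stood at 5372 and 6273, 363 and 779, and 849 and 1260 CPM. In PBS-primed PB samples they stood at 1158 and 1680, 45.5 and 31.5, and 521 and 703 CPM. What such marrow transcripts contribute to the blood rises was not tested. Stfa2, a cysteine protease inhibitor, was at 0 in both PBS-primed and at 24.4 and 41.5 CPM in LPS-primed PB samples. On library size alone 1.65% of all genes were called higher and 3.16% lower. The same 4 inhibitors were called higher there, and Slpi (-1.04) and Cst3 (-1.28) were called lower. Slpi, an elastase inhibitor with WAP domains, stood at -0.13 in the TMM fit and was not called.

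Of 30 paired immunoglobulin-like and related receptors tested, 11 rose and 1 fell in blood, and 18 did not pass, with a median of 0.78. Over all genes 3.47% were called higher and 0.472% lower there. Besides Lilrb4a, Fcgr2b, an inhibitory receptor for IgG, rose by 4.57 and Pirb, an inhibitory receptor for MHC class I, by 1.498. Cd300lb, an activating receptor for lipids, fell by 1.83 on the log2 scale. On library size alone 2 were called higher and 6 lower, where 1.65% and 3.16% of all genes were. The median was -0.13, so the direction of this list depends on the scaling. Only Lilrb4a, Fcgr2b and Cd300lb were called the same way in both. Of 12 signalling genes below these receptors 2 rose and 0 fell, among them Fcer1g, an adaptor with an activating motif, by 1.53. On library size alone Fcer1g was called higher (0.61) and the adaptor Tyrobp lower (-0.96). Tyrobp stood at -0.04 in the TMM fit.

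Of 34 LPS and NF-kB response genes 18 rose and 0 fell in blood (median 2.95), among them Lcn2, an iron-scavenging granule protein, by 4.93, and Nfkbia, the NF-kB inhibitor, by 3.42. Lcn2 stood at 10330 and 14530 CPM in PBS-primed BM samples, against 1210 and 1225 CPM in PBS-primed PB samples. Of 25 interferon response genes 21 rose and 0 fell (median 3.77), among them Ifitm3, an antiviral membrane protein, by 3.44. The shares over all genes in blood were 3.47% higher and 0.472% lower. With library size alone the counts were 12 higher and 2 lower, and 17 higher and 1 lower, where 1.65% of all genes were higher and 3.16% lower. The 1 neutrophil serine protease gene that could be tested, Prss57, was not called. In marrow edgeR called 0 genes of these lists in either direction with TMM factors. With library size alone it called Lilrb4a and the LPS response gene Lrg1 higher, where 0.118% of all genes were called. At an unadjusted edgeR p under 0.05 in either direction, 8.07% of all genes passed. Among them were 5 of 16 inhibitors, 7 of 30 receptors, 3 of 12 signalling genes, 12 of 34 LPS response genes and 2 of 25 interferon genes. DESeq2, which called 2.25% of all genes, called 2, 4, 2, 5 and 1 genes of these lists. In the same order, 0, 2, 1, 4 and 1 of them were higher and 2, 2, 1, 1 and 0 lower. Limma-voom, which called 0.118%, called 0, 1, 1, 0 and 0, the receptor higher and the signalling gene lower.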

How the data were processed

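Neutrophils of 4 groups were profiled by SCRB-seq. The authors trimmed reads with Cutadapt (1.15), aligned them to mm9 with STAR (2.6.0a), removed duplicates by UMI and counted uniquely mapped reads per gene with HTSeq (0.11.2). The gene annotation used for counting is not given in the sources used here. They kept cells by their number of genes, by more than 5000 UMIs and by their spike-in share. The deposited table holds UMI counts, not normalized. The authors also deposited for each cell the ERCC spike-in ratio, a fraction whose denominator is not stated, and a cluster number. How doublets were treated is not stated, and no doublet caller was run, since cells were picked singly.

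Genes seen in at least 10 cells (9919 of 10970) were kept. Counts were summed per sample and fitted with edgeR 4.0.16 (R 4.3.3; TMM, filterByExpr, quasi-likelihood test, 1 model of 4 groups, adjusted p threshold 0.05) after a test on simulated data. DESeq2 1.42.0, limma-voom (limma 3.58.1), library size alone, RLE, no filter, thinning, the replicate number as a block, added batch 6 sums and leaving out each sample were alternatives. Thinning to 5000 UMIs used a fixed seed of 11. The SD given for a difference in shares is the root of the summed variances of both groups. It describes the spread of a difference between single samples, not the error of the means. Intervals are Clopper-Pearson. Sequences were read with Biopython from mm9, GENCODE vM1 and RefSeq windows.

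The members, lists and tests were chosen with earlier results of these data known. Named genes were the members, the 5 most like each in plates of at least 20 cells (genes of at least 50 CPM in 1 group), and the lists. Genes named just outside the marrow threshold, and examples within lists, were picked after their values were seen. The values of 1 gene of the receptor signalling list are not reported here.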

Additional observations from a re-analysis of the deposited data

How the results depend on the processing

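The log2 fold change of Lilr4b in PB neutrophils stayed past the threshold under 16 of 17 alternatives and lost it with library size alone (0.43). Leaving out 1 sample gave 1.19 to 1.398. Wfdc17 in PB neutrophils passed the threshold with DESeq2 (1.07), limma-voom (1.1504), no filter (1.12), thinning to 5000 UMIs (0.87), the replicate block (1.154), only the 4 samples of the tissue (1.12), and without either PBS-primed BM sample. Its adjusted p ran from 0.000353 (limma-voom) to 0.682 (library size alone), and leaving out 1 sample gave 1.04 to 1.21. In BM neutrophils Wfdc17 was at 3.33 thinned to 5000 UMIs and 3.01 with the batch 6 sums added, and 3.57 to 4.70 leaving out 1 sample. Lilr4b there was at 1.56 when thinned, and at 1.62 to 1.90 leaving out 1 sample.

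The number of genes called in PB was 1047 with DESeq2 and 651 with batch 6 added, and 146 to 400 leaving out 1 sample. Without PBS-primed PB sample 1 it was 159 and without sample 2 it was 146. In BM it was 191 with DESeq2, 10 with limma-voom, 10 with library size alone, 15 with no filter, 27 thinned, 13 with the replicate block and 27 with batch 6 added, and 2 to 28 leaving out 1 sample. Same-numbered samples did not deviate together (r of -0.0271 to 0.00518 over the pairs of groups), so the replicate number is not read as a pairing. With the replicate block 374 genes were called in PB.

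The difference in share of BM cells with a Wfdc17 UMI was 30.6 points at full depth, 24.2 at 2000 UMIs and 30.4 for at least 2 UMIs, and 36.7 to 43.4 leaving out 1 sample. For Lilr4b it was 12.1, 52.4 and 54.5 points, and 36.9 to 43.6. In PB, the Wfdc17 difference was 5.88 points at 2000 UMIs and 6.90 for at least 2 UMIs, and -0.26 (without LPS-primed PB sample 1) to 3.74 leaving out 1 sample. The Lilr4b difference there was 1.14 points at full depth. The share of LPS-primed BM cells above the PBS limit was, for Wfdc17, 20.8% at the 99th percentile and 34.4% thinned, and 35.5% to 49.2% leaving out 1 sample. For Lilr4b it was 1.10% at the 99th percentile, and 26.1% to 41.8% leaving out 1 sample. Both genes were found together in 92.9% of LPS-primed BM cells at full depth, 31.2% at 2000 UMIs and 45.9% with at least 10 UMIs of each, and 51.6% to 52.2% leaving out 1 sample. Shares of cells with a UMI are set by depth. The cause of the other moves was not tested.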
